A study of Mus musculus with 7 samples.

Results

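Transcripts of microglia and brain macrophages were followed in 3 knockout and 4 wild-type samples of mouse hypothalamus, with 32 genes chosen by symbol out of the 18193 genes measured. The genes were given as a list of symbols, and each was read from the probe sets that the array annotation assigns to that gene alone. Where a gene had several, the brightest on average was used, and all 46 probe sets of the 32 genes were also examined. All 32 genes had such a probe set. The question was whether Fcrls, which was low in the knockout, was low alone or together with the rest of the cell type.

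The arrays were Affymetrix mouse430_2 arrays, 1 for each sample of hypothalamus taken at 3 months of age. The knockout, labelled Creb-PomcCre-/-, lacks Creb in cells in which a Pomc-driven Cre recombinase is active, and it was set against wild type. Microglia do not express Pomc as far as is generally known, so that the deletion is aimed at another cell type than the one described here. The labels name each sample a biological replicate and give neither sex nor strain, nor the number of mice in a sample. From Xist and 3 Y-linked transcripts, knockout array 1 and wild-type arrays 1 and 4 read as female, and knockout arrays 2 and 3 and wild-type arrays 2 and 3 read as male. Array medians lay between 6.20 and 6.24 on the log2 scale. Of the 32 genes, 27 lay above 6.22, the median of all probe sets on that scale, among them the microglia markers Csf1r, Cx3cr1, Gpr34, P2ry12, Sall1, Siglech and Tmem119 in every array. Cd163, Irf8, Itgam, Mrc1 and Spi1 lay below it. The labels do not say how replicates were made, so p-values measure only the spread between these samples.

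Microglia are the resident macrophages of the brain parenchyma, seeded early in development and maintained by signalling through the Csf1 receptor, TGF-beta and the transcription factors PU.1, Irf8 and Sall1. At rest they carry a set of surface receptors that sense nucleotides, chemokines and sialic acids, and through complement and Trem2 with Tyrobp they take up debris and synapses. Other macrophages live at the borders of the brain, along vessels and in the meninges and choroid plexus, and share many of these transcripts. Fcrls, the gene in question, encodes an Fc receptor-like scavenger protein that is used as a marker of resident microglia in the mouse. Hypothalamic microglia are known for responding to diet and for their closeness to the Pomc neurons of the arcuate nucleus.

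Promoter sequences were matched by symbol for 24 of the 32 genes, as 29 windows of 250 bases before an annotated start in RefSeq, build GRCm38.p6, and some windows of a gene overlap. Windows of 4 genes are printed to show the gene in question beside 2 homeostatic genes and a complement gene, each 5′ to 3′ on the strand of the gene, which is the minus strand for all of them. Fcrls lies at chr3:87263525-87263774, Olfml3 at chr3:103738002-103738251, P2ry12 at chr3:59262986-59263235 and C1qc at chr4:136892915-136893164. Capitals mark the letters of a motif bound by PU.1, AGGAAGT or its other strand ACTTCCT, with the longer GAGGAAGT or ACTTCCTC where it was present, and the Olfml3 window holds neither.
Fcrls: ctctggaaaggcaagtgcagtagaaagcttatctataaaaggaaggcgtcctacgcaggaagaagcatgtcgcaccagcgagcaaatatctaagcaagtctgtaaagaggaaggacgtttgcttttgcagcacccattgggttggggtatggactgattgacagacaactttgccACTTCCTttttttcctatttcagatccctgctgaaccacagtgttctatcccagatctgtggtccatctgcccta
Olfml3: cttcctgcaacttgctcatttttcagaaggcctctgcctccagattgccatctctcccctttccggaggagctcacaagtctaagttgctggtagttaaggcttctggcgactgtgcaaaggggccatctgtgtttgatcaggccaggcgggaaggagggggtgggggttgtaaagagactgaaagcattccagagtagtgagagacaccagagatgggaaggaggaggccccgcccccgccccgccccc
P2ry12: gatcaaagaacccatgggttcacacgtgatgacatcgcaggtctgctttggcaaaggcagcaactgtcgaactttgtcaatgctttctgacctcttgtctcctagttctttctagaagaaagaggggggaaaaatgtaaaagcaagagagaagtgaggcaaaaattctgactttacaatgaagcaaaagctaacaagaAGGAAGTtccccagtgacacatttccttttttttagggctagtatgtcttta
C1qc: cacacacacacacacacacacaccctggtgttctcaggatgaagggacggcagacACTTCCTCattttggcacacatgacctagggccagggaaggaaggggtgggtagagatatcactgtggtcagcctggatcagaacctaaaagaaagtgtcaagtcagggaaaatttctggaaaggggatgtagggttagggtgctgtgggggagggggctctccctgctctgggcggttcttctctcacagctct
The short PU.1 motif was found in 9 of the 29 windows, in C1qb, C1qc, Fcrls, Lyz2, Mrc1, P2ry12, Ptprc and Sall1, and in 7.69% of all 32851 promoter windows. The longer motif, which contains the short one, was found in C1qc and in 2.44% of all windows. The full cyclic AMP response element TGACGTCA, the palindrome to which Creb binds, was in 0 of the 29 windows and in 1.55% of all. Its shorter part TGACG or CGTCA was in 4 of the 29, those of C1qb, Cd68, Sall1 and Trem2, and in 17.8% of all. These are matches of letters on either strand within the windows and are given as a description.

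Fcrls was lower in the knockout in every array, with no overlap between the groups. It read 7.30, 6.98 and 7.35 in knockout arrays 1 to 3, against 7.95, 8.06, 8.09 and 8.26 in wild-type arrays 1 to 4. All 3 knockout values lay below the lowest wild-type value, and the lowest of them, array 2, was a male array. The mean was 7.21 ± 0.20 in the knockout and 8.09 ± 0.13 in wild type (SD, n = 3 and 4), a log2 difference of -0.88 ± 0.11 (SE), or 0.543 times the wild-type level. The difference did not pass the threshold of 0.05 over all 18193 genes (limma, adjusted p = 0.0624). It was the 5th smallest p of all genes, and 32 genes had a difference at least as low, Fcrls counted. Fcrls was read from 1 probe set, so that no other probe set of the gene could be set beside it. Without wild-type array 1 the difference was -0.93 and passed (limma, adjusted p = 0.0435), and with arrays weighted by their quality it was -0.93 and passed as well (limma, adjusted p = 0.0417). Over the alternatives with 2 or more arrays in each group, the adjusted p of Fcrls lay between 0.0417 and 0.730, and it was 0.957 within females, where 1 knockout array was set against 2 wild-type arrays.

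**Figure D1:**
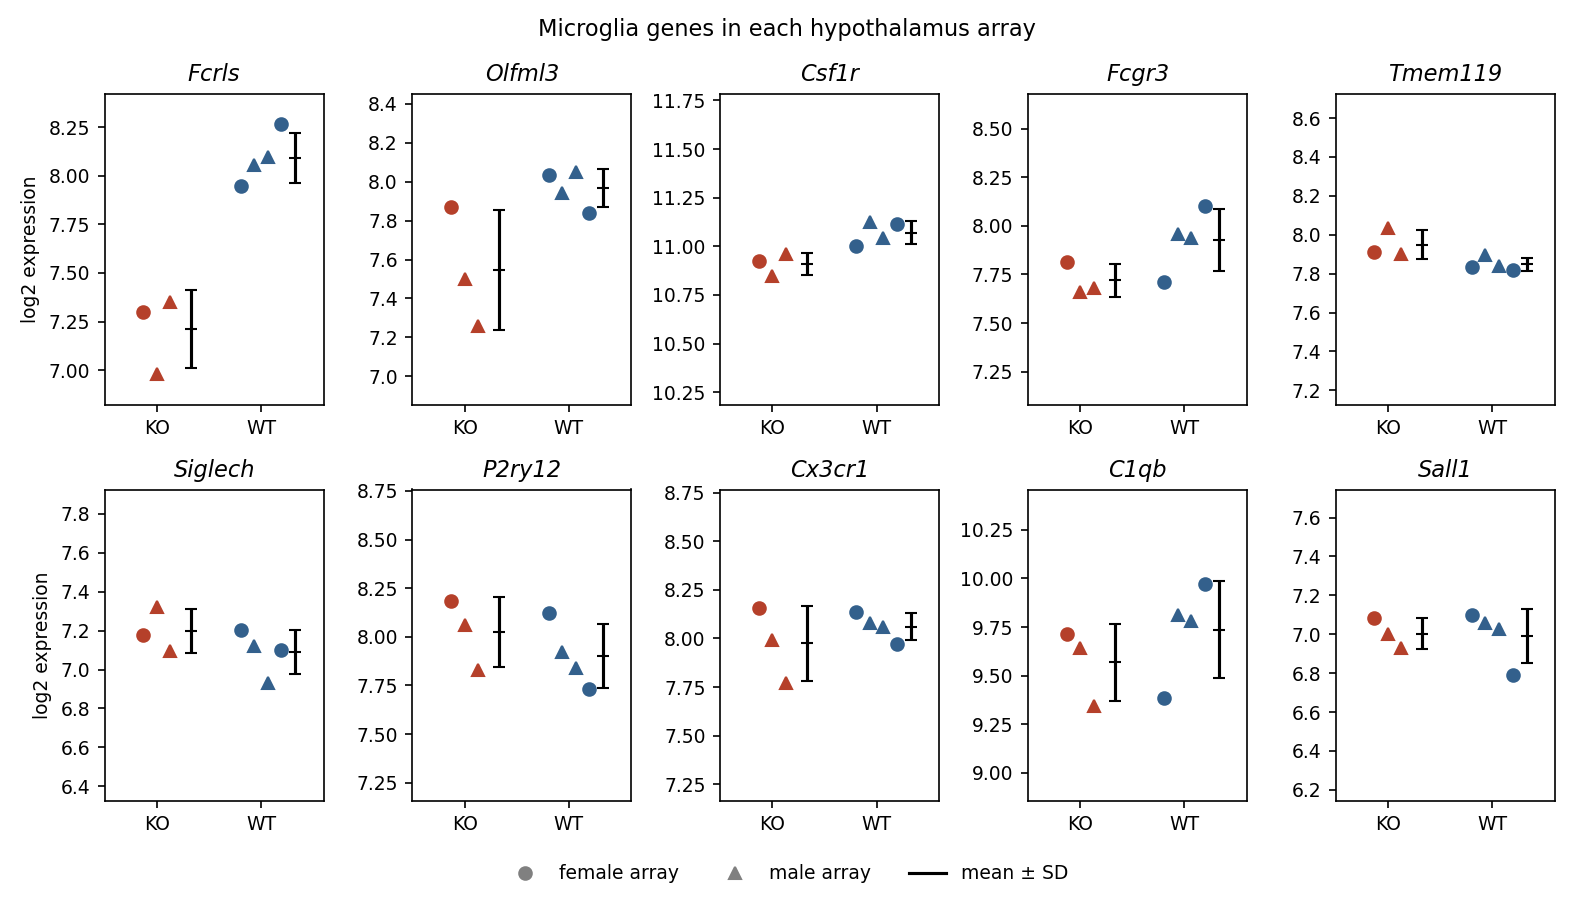
Log2 expression of 10 microglia genes in each array, knockout (KO, n = 3) left of wild type (WT, n = 4), with circles for female and triangles for male arrays and bars for the mean ± SD; each axis spans the same log2 range but starts at a different level. Fcrls read 6.98 to 7.35 in the knockout and 7.95 to 8.26 in wild type, and for Olfml3, Fcgr3, Siglech, P2ry12, Cx3cr1, C1qb and Sall1 the groups overlap.

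The other 31 genes differed far less, and 0 of the 32 genes passed the threshold, where 0.011% of all genes did (limma; 2 genes of 18193; this count was 8 when knockout array 1 was left out, 6 when wild-type array 2 was and 21 when wild-type array 1 was). An unadjusted p under 0.05 was reached by 4 members, Fcrls, Csf1r, Olfml3 and Fcgr3, all lower in the knockout, where 6.12% of all genes were lower at that p. On the higher side there were 0 members, where 5.6% of all genes were higher. Knockout values lay below wild type in every array for 3 members, Fcrls, Csf1r and Spi1 (6.05% of all genes), and above it for 1 member, Tmem119 (6.09% of all genes). Of the 32 genes, 24 were lower and 8 were higher, with a median difference of -0.09 on the log2 scale, or -0.09 without Fcrls, beside 0.00 for all genes. These counts were higher with some arrays left out. Without knockout array 1 the median was -0.14, 8 members reached the unadjusted p (11.5% of all genes) and the groups of 13 did not overlap (22.3% of all genes). Without wild-type array 1 the median was -0.14 and the groups of 8 did not overlap (20.9% of all genes). In whole tissue, fewer cells of a type and less RNA per cell cannot be told apart.

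**Figure D2:**
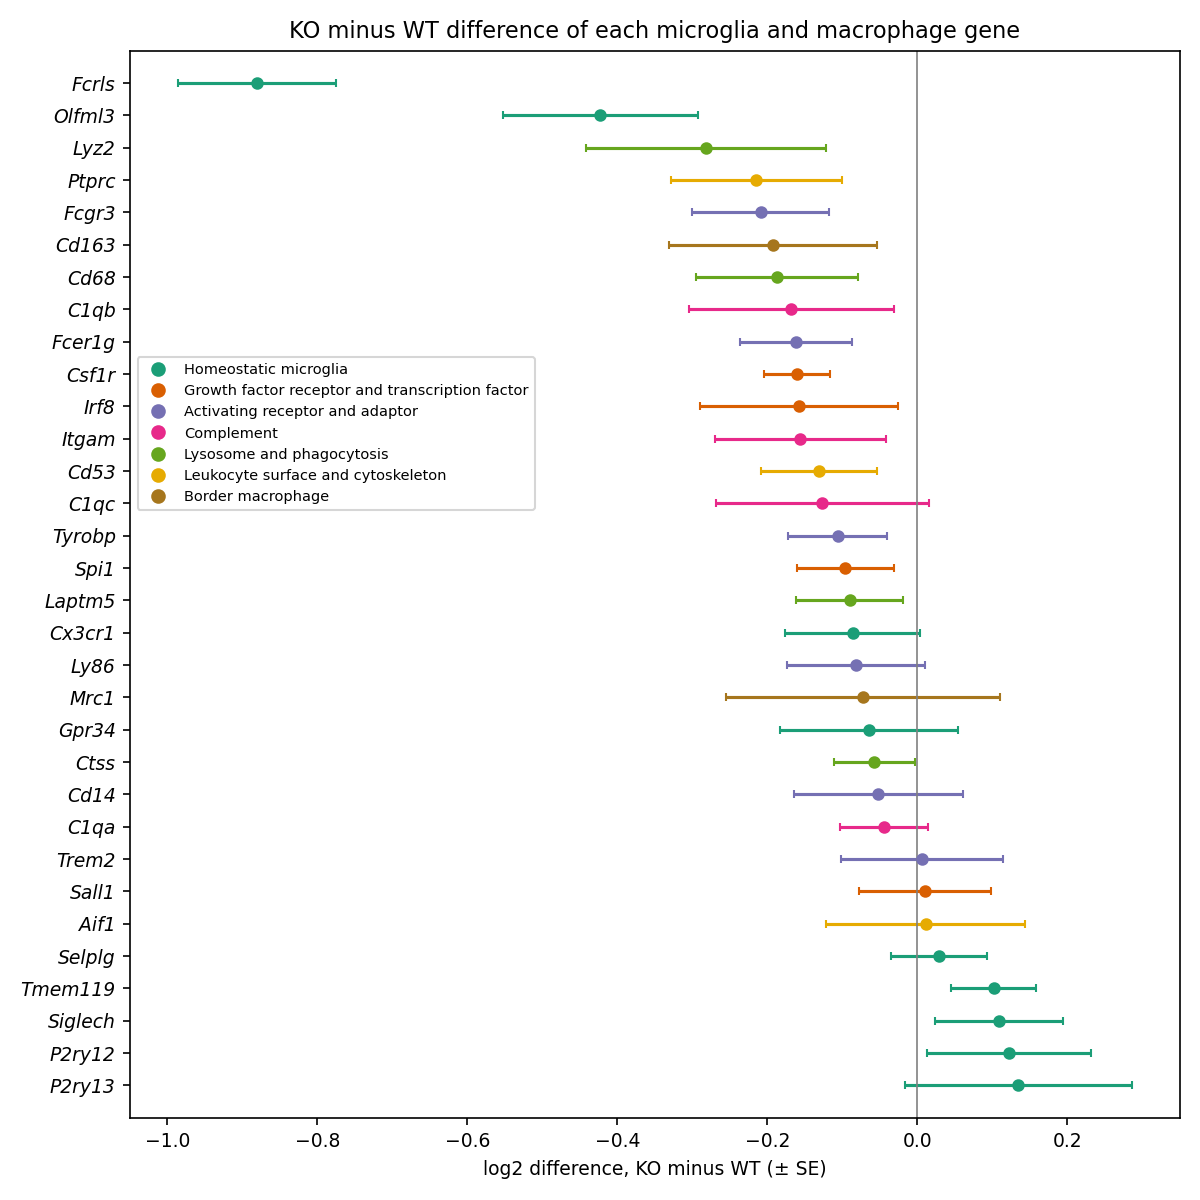
Knockout minus wild-type log2 difference (points) with its standard error (bars) for each of the 32 genes, sorted from lowest to highest and coloured by role. Fcrls stands at -0.88 and Olfml3 at -0.42, and the other 30 genes lie between -0.28 and 0.13.

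Fcrls was also set against the other members array by array. The deviation of Fcrls from its own mean over the 7 arrays, less the median deviation of the other 31 genes, was -0.47, -0.65 and -0.26 in knockout arrays 1 to 3, against 0.23, 0.22, 0.35 and 0.58 in wild-type arrays 1 to 4. Since the mean is taken over both groups, these signs restate the group difference and are given as a description. The difference of Fcrls less the median of the others was -0.79 on the log2 scale. With the median deviation of the other members as a covariate the Fcrls difference was -0.89 ± 0.13 (SE; limma, adjusted p = 0.419), about the same size with a wider error. Knockout array 1 set Fcrls apart from the rest: it lay 0.793 below the wild-type mean there, while the median member lay 0.02 above it.

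The genes of resting microglia showed no common direction, and they held both the lowest and the highest differences of the 32. Their median over 9 genes was 0.03, with 4 lower and 5 higher. Olfml3, a secreted olfactomedin-like protein of microglia, came next to Fcrls. It read 7.87, 7.50 and 7.26 in knockout arrays, against 8.03, 7.94, 8.05 and 7.84 in wild-type arrays. The male knockout arrays 2 and 3 lay below all wild-type arrays, while the female knockout array 1 lay within their range. The difference was -0.42 ± 0.13 (SE), or 0.746 times the wild-type level, and did not pass (limma, adjusted p = 0.312).

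Of the other 7 resting-state genes, 5 were slightly higher in the knockout, among them Tmem119, P2ry12, P2ry13 and Siglech. Tmem119, a transmembrane protein used to tell microglia from blood macrophages, read 7.91, 8.03 and 7.90 in the knockout, against 7.84, 7.89, 7.84 and 7.82 in wild type. Every knockout value lay above every wild-type value, by a narrow margin, and the difference of 0.10 ± 0.057 (SE) missed the threshold (limma, adjusted p = 0.508). P2ry12, the ADP receptor that steers microglial processes to injury, read 8.18, 8.06 and 7.83 in the knockout, against 8.12, 7.92, 7.84 and 7.73 in wild type. These groups overlapped almost fully, with a difference of 0.12 ± 0.11 (SE; limma, adjusted p = 0.684). P2ry13, a related nucleotide receptor, read 7.28, 7.16 and 6.78 in the knockout, against 7.24, 6.94, 6.90 and 6.68 in wild type. Its difference was 0.13 ± 0.15 (SE), the highest of the 32, and its arrays ran in the same order as those of P2ry12 within each genotype.

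Siglech, a sialic acid-binding lectin, read 7.18, 7.32 and 7.10 in knockout arrays, against 7.21, 7.12, 6.93 and 7.10 in wild-type arrays, with overlapping groups and a difference of 0.11 ± 0.085 (SE). Cx3cr1, the fractalkine receptor, read 8.16, 7.99 and 7.77 in the knockout, against 8.14, 8.08, 8.06 and 7.97 in wild type. The highest and the lowest of the 7 values were both knockout arrays, and the difference was -0.09 ± 0.090 (SE). A second Cx3cr1 probe set differed by 0.16 ± 0.12 (SE), but its mean of 4.47 is so dim that it cannot be told from background. Gpr34, a receptor for lysophosphatidylserine, differed by -0.06 ± 0.12 (SE), and Selplg, the P-selectin ligand, by 0.03 ± 0.064 (SE). Neither difference reached its standard error.

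Csf1r, in the group of the growth factor receptor and the transcription factors, had the smallest standard error of the 32 genes. This receptor, on whose signal microglia depend to survive, read 10.923, 10.847 and 10.959 in the knockout, against 11.001, 11.124, 11.043 and 11.113 in wild type. All knockout values lay below all wild-type values, although by a small margin at the nearest pair. The difference was -0.16 ± 0.044 (SE), or 0.895 times the wild-type level, and did not pass (limma, adjusted p = 0.272). Its other probe sets differed by -0.14 ± 0.061 and -0.13 ± 0.077 (SE). The groups narrowly did not overlap for the brighter of these, at 9.248 in knockout array 1 and 9.256 in wild-type array 1.

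Spi1, which encodes PU.1, read 5.87, 5.94 and 5.89 in knockout arrays, against 5.95, 6.03, 6.04 and 5.97 in wild-type arrays. The groups did not overlap, but the gap was narrow and the difference of -0.10 ± 0.065 (SE) missed the threshold (limma, adjusted p = 0.581). Spi1 and Irf8 are dim here, and without a detection call such values cannot be told from background. Irf8, a partner of PU.1, differed by -0.16 ± 0.13 (SE). Sall1, the factor that keeps microglial identity, read 7.08, 7.0 and 6.93 in the knockout, against 7.10, 7.06, 7.02 and 6.79 in wild type, a difference of 0.01 ± 0.088 (SE). The lowest Sall1 value of all was in wild-type array 4.

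The activating receptors and their adaptors were mostly a little lower. Fcgr3, a low-affinity receptor for immunoglobulin G, read 7.81, 7.66 and 7.68 in the knockout, against 7.71, 7.96, 7.94 and 8.10 in wild type. Wild-type array 1 fell among the knockout values, and the other 3 wild-type arrays lay above them. The difference was -0.21 ± 0.091 (SE) and did not pass (limma, adjusted p = 0.422). Fcer1g, the signalling chain that Fcgr3 needs, read 8.01, 7.79 and 7.80 in knockout arrays, against 8.02, 8.14, 7.96 and 8.0 in wild-type arrays. Only the male knockout arrays were low, with a difference of -0.16 ± 0.074 (SE; limma, adjusted p = 0.446). Tyrobp, the adaptor of Trem2, differed by -0.11 ± 0.066 (SE), and Trem2, a lipid-sensing receptor, by 0.01 ± 0.11 (SE). Ly86, a partner of a Toll-like receptor homologue, differed by -0.08 ± 0.092 (SE), and Cd14, the co-receptor for bacterial lipopolysaccharide, by -0.05 ± 0.11 (SE).

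Complement was represented by the 3 chains of C1q, which microglia make for the whole brain, and by Itgam, a chain of the complement receptor that binds opsonised targets. All 4 were lower on average, with a median of -0.14, and 0 passed or reached an unadjusted p under 0.05 (limma). C1qb read 9.72, 9.64 and 9.34 in the knockout, against 9.38, 9.81, 9.78 and 9.97 in wild type, a difference of -0.17 ± 0.14 (SE). The wild-type arrays alone spanned 0.587, more than 3 times the difference between genotypes. C1qc read 8.56, 8.39 and 8.09 in knockout arrays, against 8.14, 8.49, 8.59 and 8.67 in wild-type arrays, with a difference of -0.13 ± 0.14 (SE). Both genes were lowest among wild-type arrays in array 1 and highest in array 4, the reverse of P2ry12 and P2ry13. C1qa differed by -0.04 ± 0.059 (SE) and Itgam, a dim probe set, by -0.16 ± 0.11 (SE). The 2 other C1qb probe sets differed by -0.15 and -0.24.

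Genes of lysosomes and phagocytosis were all lower on average, with a median of -0.14 over 4 genes, 0 past the threshold and 0 at an unadjusted p under 0.05 (limma). Lyz2, a lysozyme of myeloid cells, read 7.34, 7.41 and 7.17 in the knockout, against 7.47, 7.89, 7.81 and 7.18 in wild type. The male wild-type arrays 2 and 3 were high, and the female wild-type array 4 was as low as the lowest knockout array. The difference was -0.28 ± 0.16 (SE; limma, adjusted p = 0.514). Cd68, a lysosomal membrane protein, differed by -0.19 ± 0.11 (SE) and Ctss, the protease cathepsin S, by -0.06 ± 0.054 (SE). Laptm5, a lysosomal membrane protein of blood cells and microglia, differed by -0.09 ± 0.071 (SE). Its 4 other probe sets gave -0.12, -0.05, 0.01 and 0.18, and the last of these, whose groups did not overlap, was higher in the knockout and reached an unadjusted p (limma, adjusted p = 0.447). Over all members, 8 of the 14 further probe sets had the sign of the one used, and 0 of the 46 probe sets passed the threshold (limma; 0.00666% of all 45037 probe sets). An unadjusted p under 0.05 was reached by 6 of them, and by 10.6% of all probe sets.

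Surface and cytoskeletal proteins of leukocytes differed widely between knockout arrays for Aif1 and Ptprc. Ptprc, the phosphatase CD45 of all nucleated blood cells, read 6.73, 6.27 and 6.40 in the knockout, against 6.57, 6.82, 6.67 and 6.67 in wild type, a difference of -0.21 ± 0.11 (SE). Aif1, the actin-binding protein Iba1 used to stain microglia, read 7.63, 7.02 and 7.15 in knockout arrays, against 7.35, 7.24, 7.25 and 7.19 in wild-type arrays. Knockout array 1 was the highest of all arrays for Aif1 and arrays 2 and 3 were the lowest, which left a difference of 0.01 ± 0.13 (SE). Cd53, a tetraspanin, differed by -0.13 ± 0.077 (SE), and a second Cd53 probe set, dim with a mean of 3.33, by 0.13 ± 0.064 (SE). The border macrophage receptors were dim: Cd163, the haemoglobin scavenger receptor, differed by -0.19 ± 0.14 (SE) and Mrc1, the mannose receptor, by -0.07 ± 0.18 (SE). Mrc1 read 4.89, 4.99 and 5.01 in the knockout, against 4.68, 4.95, 5.58 and 4.93 in wild type, so that wild-type array 3 was far above the rest.

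**Figure D3:**
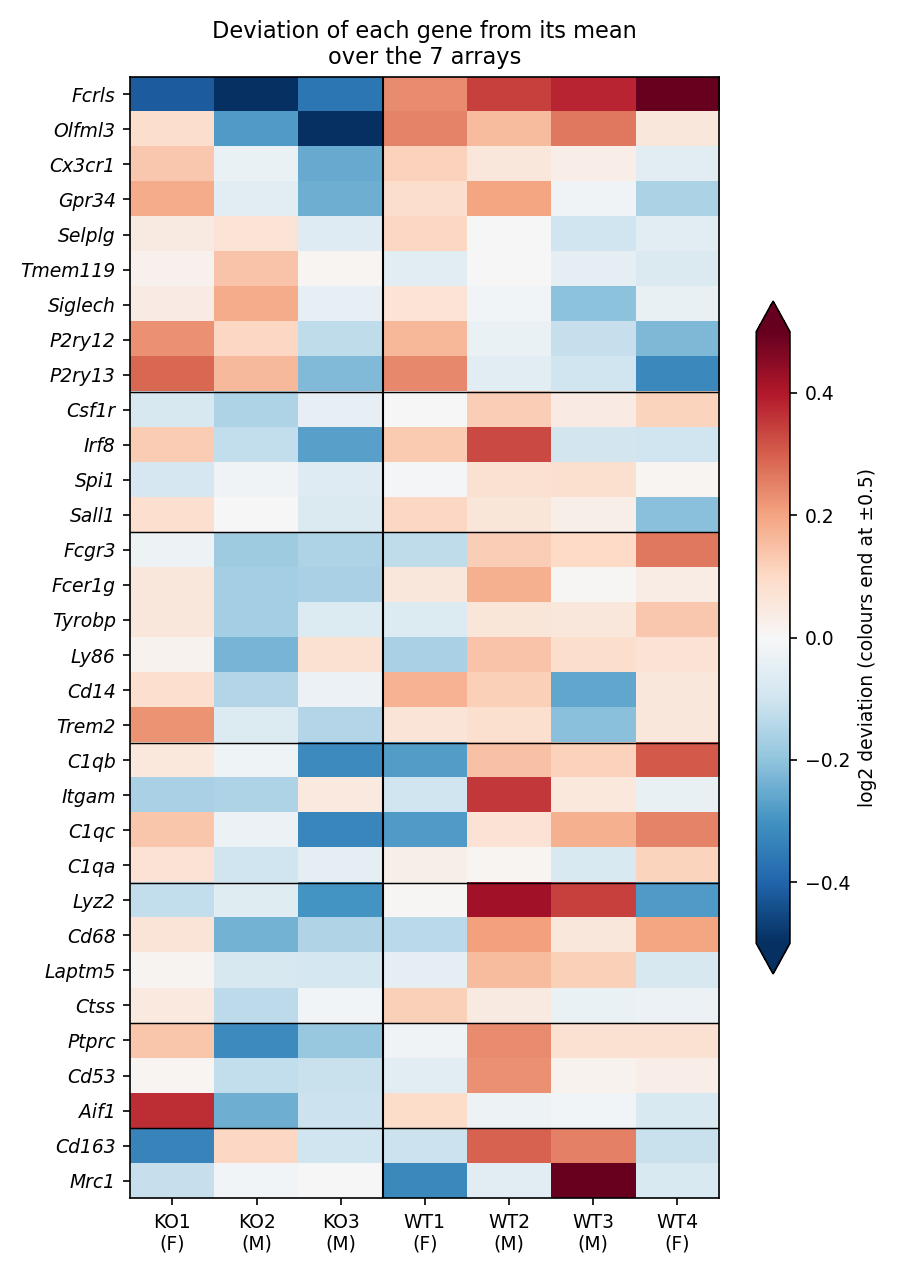
Log2 deviation of each of the 32 genes from its mean over the 7 arrays, knockout (KO) columns left of wild-type (WT) columns, F for female and M for male arrays, with lines between the role groups in the order of the text. Fcrls is low in all 3 knockout arrays, whereas the median gene lies 0.02 above the wild-type mean in knockout array 1 and below it in arrays 2 and 3; colours end at 0.5 either way.

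Read by array, the knockout arrays were not alike. Knockout array 1 lay below every wild-type array for 5 of the 32 genes, where 20.8% of all genes did. Knockout array 2 did so for 17 (24.0% of all genes) and knockout array 3 for 17 (23.6% of all genes). The median member lay 0.02 above the wild-type mean in knockout array 1, and fell below it by 0.14 in array 2 and by 0.13 in array 3. Wild-type array 2 held the highest value of 12 genes and the lowest of 0, while knockout array 2 held the lowest of 12. Knockout arrays 1 and 3 held the lowest of 3 and 8. The share of all genes was not counted for these extremes, so they are given as a description.

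Knockout array 1 was the only female knockout array, so that sex and array cannot be told apart there. Among male arrays, both knockout values lay below both wild-type values for 22 of the 32 genes, where 20.8% of all genes did, and above them for 1 gene (22.3% of all genes). Among female arrays, the knockout array lay below both wild-type arrays for 5 genes (32.1% of all genes) and above both for 9 (35.1% of all genes). An unadjusted p under 0.05 was reached by 13 members within males, all lower in the knockout, where 10.1% of all genes reached it, and by 2 within females (limma; 3.6% of all genes). In either direction, the groups of 23 members did not overlap within males (43.1% of all genes) and those of 14 within females (67.2% of all genes). The median difference was -0.21 within males and 0.03 within females. Fcrls differed by -0.91 within males and by -0.81 within females, and so was low in both. A test of the difference between the sexes, a genotype by sex interaction, called 0 members and 0 genes (limma, lowest adjusted p of a member = 0.999894). It reached an unadjusted p under 0.05 for 5 members, where 3.67% of all genes did: Aif1, Laptm5, Lyz2, Olfml3 and Ptprc. The interaction was -0.55 for Olfml3 and -0.58 for Lyz2, males minus females. These splits by sex were chosen after seeing the data.

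**Figure D4:**
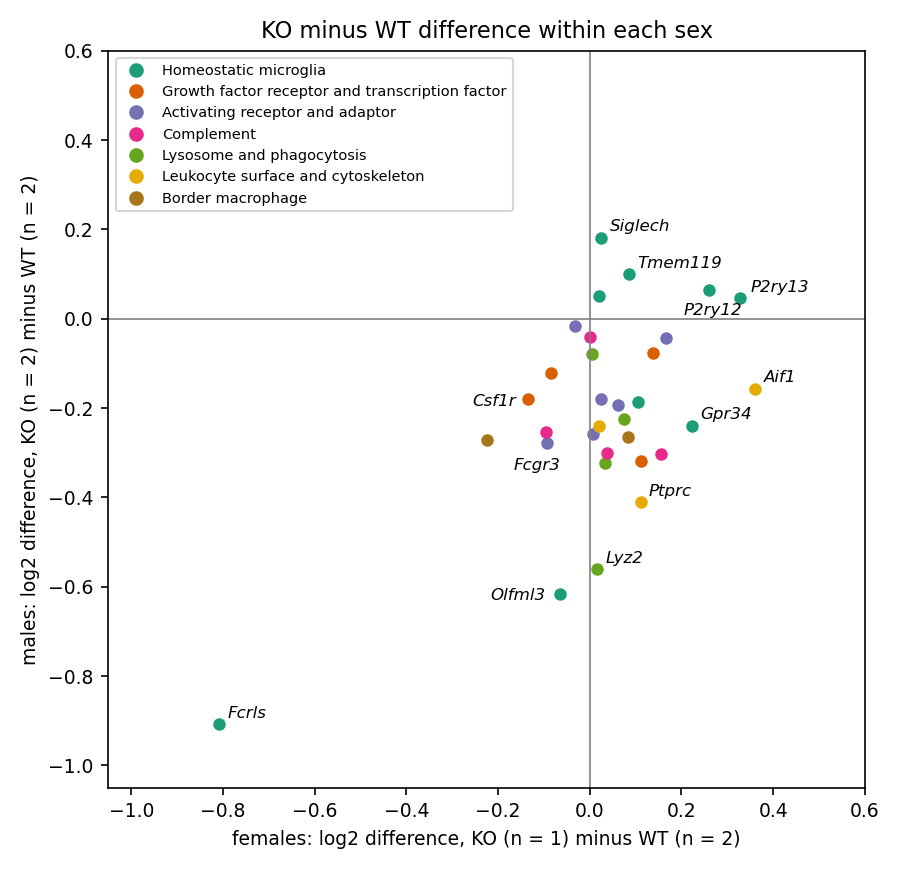
Knockout minus wild-type log2 difference of each of the 32 genes within females (horizontal axis, 1 knockout and 2 wild-type arrays) and within males (vertical axis, 2 and 2 arrays), coloured by role. Fcrls lies at -0.81 and -0.91, far from the other genes, most of which lie near 0 within females and below 0 within males.

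Markers of other cells varied along with part of this pattern. The 13 markers of meninges and fibroblasts had a median difference of -0.71, with 11 lower, 2 higher and 0 past the threshold (limma). At an unadjusted p under 0.05, 2 of them were lower (limma), as were 6.12% of all genes. The median deviation of these markers was -0.44, -0.22 and -0.46 in the knockout, against -0.41, 0.56, 1.29 and -0.30 in wild type. Wild-type arrays 2 and 3, the male ones, were thus high for meningeal markers, and the same arrays were high for Lyz2, Cd163 and, in array 3, Mrc1. Without these arrays the median of the 32 genes was -0.06 and Fcrls differed by -0.90 (limma, adjusted p = 0.730), with 2 members at an unadjusted p under 0.05, as were 6.67% of all genes. Only female wild-type arrays remained in that fit, beside knockout arrays of both sexes, so sex and meningeal level cannot be told apart there. The mean log2 level over the meningeal markers ran between 6.45 and 6.96 in the knockout and between 6.56 and 8.30 in wild type. Their part in the lower macrophage genes was not tested.

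Of 13 measured border macrophage genes outside the 32, 10 were lower and 3 higher, with a median of -0.11. None passed the threshold and 1 was lower at an unadjusted p under 0.05 (limma), as were 6.12% of all genes. The median deviation of these 13 genes was -0.08, -0.03 and -0.02 in the knockout, against -0.05, 0.05, 0.285 and 0.01 in wild type, highest in wild-type array 3. The gene at that p was Cbr2, a carbonyl reductase of border macrophages, at 5.08, 5.45 and 5.28 in the knockout against 5.49, 5.46, 5.57 and 5.58 in wild type. The groups did not overlap, and the difference was -0.25 ± 0.094 (SE; limma, adjusted p = 0.368). Cbr2 is dim here and cannot be told from background. Maf, a transcription factor of macrophages, differed by -0.37 ± 0.17 (SE), with wild-type array 3 at 9.34 and the other wild-type arrays between 8.52 and 8.84. Stab1, a scavenger receptor, differed by -0.19 ± 0.093 (SE).

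A wider list of 44 microglia genes outside the members had a median of -0.02, with 27 lower and 17 higher. None passed the threshold, and 1 was higher at an unadjusted p under 0.05 (limma), as were 5.6% of all genes. Runx1, a transcription factor of blood cells and microglia, read 6.28, 6.05 and 6.03 in the knockout, against 6.02, 5.88, 5.89 and 5.89 in wild type. All knockout values lay above all wild-type values, with a difference of 0.20 ± 0.085 (SE; limma, adjusted p = 0.414), or 0.02 with the mean of its probe sets. Runx1 is also dim, below 6.22 in every array but knockout array 1. Abi3, an actin regulator, lay below wild type in every knockout array with a difference of -0.16 ± 0.073 (SE), or -0.02 with the mean of its probe sets. Cyth4, an exchange factor of myeloid cells, differed by -0.16 ± 0.091 (SE). Abi3 and Cyth4 are dim here, below 6.22 in every array. Of the Fc receptors and their kinases, the family nearest to Fcrls and Fcgr3, 10 were measured with a median of -0.03, and 0 passed or reached an unadjusted p under 0.05 (limma). Fcgr1, the high-affinity immunoglobulin G receptor, differed by -0.15 ± 0.076 (SE), Fcgr4 by -0.12 ± 0.085 (SE) and Fcrla, an Fc receptor-like protein of B cells, by 0.17 ± 0.096 (SE). All 3 are dim here, below 6.22 in every array, and cannot be told from background. With the mean of probe sets Fcgr1 differed by -0.10 and Fcrla by 0.08.

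Of 13 signals that sustain or restrain microglia, 9 were lower and 4 higher, with a median of -0.05. At an unadjusted p under 0.05, 1 was lower (limma), as were 6.12% of all genes. Cd200, a neuronal ligand that restrains microglia, read 11.66, 11.29 and 11.37 in the knockout, against 11.65, 11.89, 11.96 and 11.76 in wild type. Knockout array 1 reached the lowest wild-type array while the male knockout arrays lay below all of them, and the difference of -0.37 ± 0.097 (SE) missed the threshold (limma, adjusted p = 0.267). Cx3cl1, the ligand of Cx3cr1, differed by -0.16 ± 0.078 (SE), and Tgfbr2, a receptor for TGF-beta, by -0.23 ± 0.13 (SE). With the mean of all probe sets of each gene, these differences were smaller, at -0.08 and -0.06.

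Genes of activated microglia showed no common direction, with 12 of 25 lower, 13 higher and a median of 0.01, beside 0.00 for all genes. None passed, and 3 were lower at an unadjusted p under 0.05 (limma), as were 6.12% of all genes. Clec7a, the beta-glucan receptor dectin-1, read 4.82, 4.60 and 4.36 in the knockout, against 5.0, 5.26, 5.09 and 4.75 in wild type, a difference of -0.43 ± 0.14 (SE; limma, adjusted p = 0.324). Cybb, the catalytic chain of the phagocyte oxidase, differed by -0.32 ± 0.11 (SE), and H2-Eb1, a class II antigen presentation gene, by -0.47 ± 0.20 (SE). Clec7a and Cybb are dim here, and H2-Eb1 was highest in wild-type array 3, at 7.09. Of 11 complement genes outside C1q, 7 were lower and 4 higher with a median of -0.09, and 0 passed or reached an unadjusted p under 0.05 (limma). Serping1, the inhibitor of the first complement proteases, differed by -0.52 ± 0.27 (SE), with wild-type arrays 2 and 3 at 8.22 and 8.81 and the other wild-type arrays at 7.54 and 7.66. Cd55, which limits complement on the cell surface, differed by -0.15 ± 0.070 (SE) with no overlap, and C1s1, a protease of the first component, by -0.18 ± 0.092 (SE). Both Cd55 and C1s1 are dim here.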

How the data were processed

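The values are log2 expression values that the authors deposited, 1 column per array, for 7 arrays of mouse hypothalamus. The submitters' processing notes name RMA, affy and R 2.10.0, with no settings. RMA gives no detection call, evens out overall signal between arrays, and levels of different probe sets cannot be compared. The number of arrays limits the precision, and the median standard error was 0.107 over the members and 0.0733 over all genes.

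Of 45101 probe sets, 64 controls were left out, and of the 45037 others 34945 carried 1 gene symbol, 932 several and 9160 none. Genes were named from probe sets with 1 symbol, of which 34741 were found in the RefSeq gene table (GRCm38.p6) with 0 symbols changed, and the brightest probe set stood for each of 18193 genes. The genotypes were compared with limma 3.58.1 under R 4.3.3, by lmFit and two-sided eBayes tests with an intensity trend. P-values were adjusted by Benjamini-Hochberg over all genes, with a threshold of 0.05. Differences are knockout minus wild type. The fit was tested on simulated data. Deviations per array are medians over a list of each gene's value less its mean over the 7 arrays.

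The members, lists and tests were chosen with earlier results of these data known. All members were named, with array values for Fcrls, the members with an unadjusted p under 0.05 and the defining markers. Of the other microglia-related lists up to 3 genes with the smallest p were named, of lists of other cells 1, and of the genes next to Fcrls 5 measured genes on each side. Array values of further members were added after their values were seen. Sex was read from Xist, Eif2s3y, Kdm5d and Uty. The labels number the replicates, and same-numbered arrays of the genotypes were of the same sex. Their deviations over genes had correlations of 0.318, 0.101 and 0.143 for numbers 1 to 3, beside -0.316 to 0.126 for arrays with different numbers. The correlation for number 2 lay within that range. The number was also fitted as a replicate block. Other alternatives covered the dim filter, the variance trend, array weights, normalization and centring, the mean of a gene's probe sets, sex as a covariate, the threshold, and leaving out arrays. Plots were made in Python 3.11.15 with matplotlib 3.10.9.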

Additional observations from a re-analysis of the deposited data

Results flagged for a closer look

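Among the wild-type arrays, Trem2 in array 3 stood apart from the others. It read 7.09 there, against 7.36, 7.38 and 7.35 in wild-type arrays 1, 2 and 4, a gap of 0.916 of the whole wild-type range. The knockout arrays read 7.52, 7.23 and 7.15. Over groups of 4 arrays, chance sets about 1 in 20 apart by this measure, and it was reached once among 40 values examined.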

How the results depend on the processing

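Fcrls kept its direction under every alternative run, with differences between -0.95 and -0.77 when 1 array was left out. It passed the threshold in 2 of them, with array weights (-0.93; limma, adjusted p = 0.0417) and without wild-type array 1 (limma, adjusted p = 0.0435), and its adjusted p was as high as 0.957 elsewhere, within females, with 1 knockout array. At an adjusted p under 0.1 it was the 1 member called and 8 genes were called. The limits of the data are 7 arrays, 1 female knockout array, a scale with no detection call, and 5 members too dim for the filter on dim probe sets, which left 27. Background correction and the slide or scan as a block could not be tried on the deposited table.

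The count of genes past the threshold was 7 with array weights, 1 with the mean of probe sets, and 2 to 21 with 1 array left out. That of probe sets was 5 with sex as a covariate and 3 to 46 with 1 array left out, 9 or more without knockout array 1 or 2 or wild-type array 1 or 2. Of the members, 1 passed with array weights and 0 to 1 with 1 array left out. With 1 array left out, 3 to 8 members reached an unadjusted p under 0.05, beside 1479 to 2632 of the 18193 genes. The groups of 4 to 13 members did not overlap. There were 13 without knockout array 1 (22.3% of all genes) and 8 without wild-type array 1 (20.9% of all genes). Without wild-type arrays 2 and 3 together, 2 members reached an unadjusted p under 0.05 (6.67% of all genes). The median of the members ran between -0.14 and -0.07 with 1 array left out. With the replicate block, over the arrays numbered 1 to 3, Fcrls differed by -0.82 (limma, adjusted p = 0.352), the median of the members was -0.11 and 2 genes passed. That fit also lacked wild-type array 4, and leaving out this array alone gave -0.82 (limma, adjusted p = 0.313), a median of -0.11 and 2 genes. No member passed in these fits or in the main one, so the calls do not show what the pairing did. Within males, chosen after seeing the data, 1 gene and 9 probe sets passed, 13 members reached an unadjusted p under 0.05 (10.1% of all genes), the groups of 23 did not overlap (43.1% of all genes) and the median was -0.21. Within females, also chosen afterwards, 0 genes and 1 probe set passed, 2 members reached that p (limma; 3.6% of all genes), the groups of 14 did not overlap (67.2% of all genes) and the median was 0.030. The cause of these shifts was not tested beyond the arrays left out.

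Some differences turned in sign, among them those of Lyz2 and Ptprc, the 3rd and 4th lowest of the 32. Of 553 values for the 31 members other than Fcrls under the alternatives, 43 in 21 genes did so, and of 646 values for the 37 other named genes 7 in 5 did. Within females the turned differences were 0.016 for Lyz2, 0.11 for Ptprc, 0.034 for Cd68, 0.039 for C1qb, 0.0081 for Fcer1g, 0.11 for Irf8, 0.020 for Cd53, 0.16 for C1qc, 0.024 for Tyrobp, 0.075 for Laptm5, 0.11 for Cx3cr1, 0.061 for Ly86, 0.084 for Mrc1, 0.22 for Gpr34, 0.0043 for Ctss, 0.0014 for C1qa, 0.058 for Cyth4, 0.14 for Tgfbr2 and 0.030 for Serping1. Within males they were -0.043 for Trem2, -0.078 for Sall1, -0.16 for Aif1, -0.0071 for Cd1d1 and 0.086 for Cd5l. With the mean of probe sets they were 0.0017 for Cd53, 0.036 for Cx3cr1 and -0.010 for Sall1, and with array weights -0.0028 for Trem2. The replicate block gave -0.057 for Sall1, -0.012 for Aif1 and 0.0085 for Cd5l. Without wild-type arrays 2 and 3 they were 0.011 for Laptm5, 0.16 for Mrc1, -0.056 for Trem2, -0.0034 for Aif1 and -0.0082 for Selplg. Leaving out 1 array turned C1qc (-0.24 to 0.00037), Cx3cr1 (-0.18 to 0.014), Ly86 (-0.15 to 0.011), Mrc1 (-0.19 to 0.11), Gpr34 (-0.18 to 0.039), Cd14 (-0.15 to 0.0054), Trem2 (-0.10 to 0.081), Sall1 (-0.057 to 0.049), Aif1 (-0.17 to 0.14), Selplg (-0.00077 to 0.070) and Cd5l (-0.17 to 0.0085), each with its range.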

Other observations

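The genes that neighbour Fcrls along its chromosome were examined as a further description. Of the 5 measured genes on each side, 7 of 10 were lower in the knockout, with differences between -0.24 and 0.11 on the log2 scale. Arhgef11, an activator of the small GTPase RhoA, read 8.13, 8.19 and 8.25 in the knockout, against 8.38, 8.47, 8.44 and 8.42 in wild type, and the groups did not overlap. Its difference was -0.24 ± 0.052 (SE; limma, adjusted p = 0.220). The nearest genes were Kirrel, an adhesion protein, at -0.19 ± 0.088 (SE), and Cd5l, a secreted macrophage protein, at -0.06 ± 0.13 (SE). Fcrl1 differed by -0.11 ± 0.084 (SE), Pear1 by -0.11, Dclk2 by -0.09 and Etv3 by -0.04. Mab21l2 differed by 0.05, Cd1d2 by 0.10 and Cd1d1 by 0.11. Cd1d2, Cd5l, Fcrl1 and Mab21l2 are dim here. Insrr, a receptor of the insulin receptor family that lies just beyond these 10, was chosen after its values were seen. It read 5.35, 5.43 and 5.37 in the knockout, against 5.06, 4.95, 5.04 and 5.04 in wild type, a difference of 0.36 ± 0.066 (SE; limma, adjusted p = 0.185). Insrr is dim as well, below 6.22 in every array.

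Blood and other brain cells were described by 1 gene each beside their list. Of 14 blood leukocyte markers, 11 were higher and 3 lower (median 0.07), with differences between -0.23 and 1.41. At an unadjusted p under 0.05, 1 of them was higher (limma), as were 5.6% of all genes. Camp, a granulocyte peptide, read 5.46, 6.45 and 5.60 in the knockout, against 5.25, 5.33, 5.03 and 5.42 in wild type, a difference of 0.58 ± 0.22 (SE; limma, adjusted p = 0.371). Knockout array 2 was far above the rest, and Camp was dim in the other arrays, below 6.22. The 3 red cell markers had a median of 0.41, and Slc4a1, their anion exchanger, was also highest in knockout array 2, at 4.92, on a dim probe set. Of 12 endothelial and mural markers, 9 were lower and 3 higher, with a median of -0.14 and 4 lower at an unadjusted p under 0.05 (limma), beside a median of -0.09 and 4 of 32 at that p for the members. Over all genes, 6.12% were lower and 5.6% higher at that p. Vwf, the clotting protein of endothelium, read 5.74, 5.75 and 5.87 in the knockout, against 6.29, 6.34, 6.73 and 6.75 in wild type (-0.74 ± 0.13, SE; limma, adjusted p = 0.171). Its knockout values are dim, below 6.22. Of 15 neuron markers, 12 were lower and 3 higher, with a median of -0.06 and 3 lower at that p, among them Rbfox3, a neuronal splicing factor, at -0.18 ± 0.030 (SE). Astrocyte markers had a median of 0.03 over 10, with 4 lower and 6 higher, 3 of these at that p, among them Gfap, their intermediate filament, at 0.25 ± 0.091 (SE). Oligodendrocyte markers had a median of -0.09 over 11, with 8 lower, 3 higher, 0 at that p and Cspg4 of their precursors at -0.16 ± 0.081 (SE). Choroid plexus markers had -0.21 over 7, with 6 lower, 1 higher and 1 at that p, Sostdc1, at -0.23 ± 0.075 (SE), and Bmp6 of the meninges differed by -0.73 ± 0.27 (SE). None of these genes passed the threshold (limma).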
